A study of Homo sapiens with 24 samples.

Results

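The inhibitors of secreted and lysosomal proteases described here, 10 genes that epithelia make, were the clade B serpins SERPINB1, SERPINB2, SERPINB3 and SERPINB4, the acute-phase serpin SERPINA3, the Kazal-type inhibitors SPINK1 and SPINK6, the whey acidic protein (WAP) domain inhibitors PI3 (elafin) and SLPI, and the cystatin CSTA. Of these 10 genes, 9 had a transcript cluster that named that gene alone, out of 18417 genes so measured, and SERPINB2 was not analysed here. The list was selected on values from these same arrays, with the level of each gene and its change on PKCδ depletion in each line already known. The members' levels and changes are therefore given as a description, with errors and no p-value. Where a member is said to be called, it passed the threshold set for all genes, which serves here to place it beside them and is no independent test of it. Each of the 9 genes had 1 cluster, so no choice between clusters was made.

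The arrays came from 4 non-small cell lung cancer (NSCLC) lines, H2009, H441, A549 and H460. Each line was stably transduced with a lentivirus carrying either a scrambled, non-targeting shRNA (δscr) or 1 shRNA against the coding region of PKCδ, the kinase that PRKCD encodes (δ193), so the controls also carry a vector and an shRNA. Each of the 8 groups had 3 arrays, 24 in all, which the study's methods call biological replicates, and with 1 targeting shRNA its own off-target effects and those of PKCδ loss cannot be told apart. Values are on the log2 scale, and every change below is the mean of the δ193 arrays minus that of the δscr arrays of the same line, with the standard error (SE) of a linear model over all 24 arrays.

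Epithelial surfaces meet proteases from neutrophils, from shed skin and airway cells and from lysosomes, and each inhibitor family blocks them in its own way. A serpin offers a bait loop, is cut and traps the protease in a covalent complex. Kazal and WAP domains instead sit in the active site like a tight-fitting substrate, and cystatins wedge into the cleft of cysteine cathepsins. In the airway, SLPI and elafin are secreted shields against neutrophil elastase, while the clade B serpins and CSTA act mostly inside the cell.

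SERPINB3 and SERPINB4 are near copies of each other. They encode the squamous cell carcinoma antigens, and their promoters in the RefSeq table (GRCh38.p14) were identical at 296 of 300 bases, or 98.67%. They are shown first because both transcripts were higher after depletion in the same line. The SERPINB3 sequence is chr18:63661864-63662143 and the SERPINB4 sequence chr18:63644227-63644506, both on the minus strand, printed 5′ to 3′ from 250 bases before the transcript start to 30 bases after it, with the bases that differ in capitals.
SERPINB3: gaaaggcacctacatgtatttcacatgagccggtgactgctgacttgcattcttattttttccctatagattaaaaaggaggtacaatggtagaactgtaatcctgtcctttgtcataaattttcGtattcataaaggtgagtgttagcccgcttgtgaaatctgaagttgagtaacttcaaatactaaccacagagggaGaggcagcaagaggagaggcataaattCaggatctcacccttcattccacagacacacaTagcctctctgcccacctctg
SERPINB4: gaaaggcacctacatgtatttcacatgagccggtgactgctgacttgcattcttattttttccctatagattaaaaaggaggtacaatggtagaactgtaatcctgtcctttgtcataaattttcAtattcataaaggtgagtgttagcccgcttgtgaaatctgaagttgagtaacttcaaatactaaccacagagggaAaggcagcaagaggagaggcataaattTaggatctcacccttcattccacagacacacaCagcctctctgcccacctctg
Counted from 1 at the 5′ end, with the SERPINB3 base first, the differences are G126A, G201A, C228T and T260C. The promoters say nothing of the transcripts, and how far each cluster reads the transcript of the other gene was not tested.

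The SPINK6 window is shown because this transcript had the biggest change of the 9. It is chr5:148202528-148202807 on the plus strand, over the same distances from the start, and the capitals mark its match to TGANTCA, where N is any base. These letters are looser than the AP-1 site, which has C or G in the middle. The match here has A there, so it is not that site.
SPINK6: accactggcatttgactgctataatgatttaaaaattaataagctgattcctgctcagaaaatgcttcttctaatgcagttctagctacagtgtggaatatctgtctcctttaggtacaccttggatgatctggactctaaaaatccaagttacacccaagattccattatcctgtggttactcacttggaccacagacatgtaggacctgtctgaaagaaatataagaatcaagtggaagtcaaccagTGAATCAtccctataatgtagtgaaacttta
Promoter windows of 300 bases were found for 6 of the 9 genes, 7 windows in all since SPINK6 has a pair. On either strand, TGANTCA was in 1 of the 7 windows and in 7.71% of all 35116 windows in the table. The STAT letters TTCNNNGAA were in 3 of the 7, those of SPINK1, SERPINB1 and the second SPINK6 start, against 7.66% of all windows. TATAAA was in 0 of the 7, against 11.53% of all. Such a match is a string of letters and not a measured binding site.

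PRKCD, the targeted gene, was lower in δ193 in each line, with no overlap of arrays, with changes of -2.25 (H2009), -2.40 (H441), -1.26 (A549) and -2.03 (H460) and an SE of 0.20 in each. Medians of the 24 arrays lay between 4.785 and 4.907. Replicate arrays correlated least in H441, with r of 0.9839 to 0.9885 in δ193 and 0.9892 to 0.9896 in δscr, against 0.9933 and above in the other lines, and the median within-group variance of H441 was 2.47 times that of the other lines. Keratins KRT7, KRT8 and KRT18 were between 11.07 and 12.48 in all 4 δscr groups and of the 7 immune markers PTPRC, CD3E, MS4A1 and MPO were between 2.66 and 3.85, while CD14 was at 4.79 to 6.11, ELANE at 5.93 to 6.72 and CD68, a lysosomal protein, at 9.27 to 10.44. The other epithelial markers varied between lines. EPCAM was 11.20 in H2009 and 4.71 to 5.89 in the other lines, and CDH1 was 11.23 in H2009 and 5.60 to 8.73 in the others. KRT19 ran from 5.24 in A549 to 10.74 in H2009, CLDN4 from 5.74 in A549 to 7.97 in H2009, and ELF3 from 6.06 in H460 to 9.24 in A549. The fibroblast and endothelial markers had medians of 3.76 to 3.95, with COL1A1 highest at 6.03 to 6.49. The lung lineage genes had δscr means of 3.61 to 5.55, the highest being NKX2-1 in H2009. In H441, a line known for surfactant protein, SFTPB was at 4.01, SFTPC at 5.39 and SFTPD at 5.29. The others there were NAPSA at 5.09, FOXJ1 at 4.67, NKX2-1 at 4.21 and SCGB1A1 at 4.03. Of 8 epithelial markers, 3 were called lower in H441 δ193, CDH1 (-1.20), ELF3 (-0.88) and KRT19 (-0.55), beside 7.22% of all genes. ELF3 was called lower in H2009 (-0.93), and 0 of the 8 were called lower in A549 or H460. KRT19 was called higher in H460, by 1.20, and CLDN4 higher in A549, by 0.58. Of the immune markers CD14 was called lower in A549 and higher in H460 and MPO higher in H441. The endothelial marker PECAM1 and the lung marker NAPSA were called lower in H441. Their part in the changes below was not tested. As a guide to what is low on this array, 341 olfactory receptor genes had a median of 3.04 and a 95th percentile of 4.003.

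A gene was called where its adjusted p was under 0.05 in the limma model and its change reached the fold limit of the study's methods, 0.32 on the log2 scale in either direction. Of all genes, 4.91% were called in H2009 (2.66% higher and 2.25% lower). H441 had 14.3% called (7.09% higher and 7.22% lower), A549 had 4.63% (2.05% higher and 2.58% lower) and H460 had 5.45% (2.01% higher and 3.44% lower), while 22.5% of genes were called in at least 1 line. The model shares 1 spread over the lines, which is under that of H441: fitted alone, H441 had 401 genes called in place of 2636, and calls in H441 are read with that limit. The shared spread is over that of H460, the line with the lowest median variance: fitted alone, H460 had 1583 genes called in place of 1003. Among the 9 inhibitors H460 had 6 calls (3 lower, 3 higher), H441 had 5 (3 lower, 2 higher), A549 had 1 each way and H2009 had 2 lower, and 7 of the 9 were called in at least 1 line, counts that the way the list was chosen fixes in part and from which nothing is read. The median change of the 9 was -0.01 in H460, 0.11 in H441, 0.07 in A549 and 0.06 in H2009, with members changed in both directions, against medians of 0.012, 0.002, 0.006 and 0.014 over all genes.

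**Figure D1:**
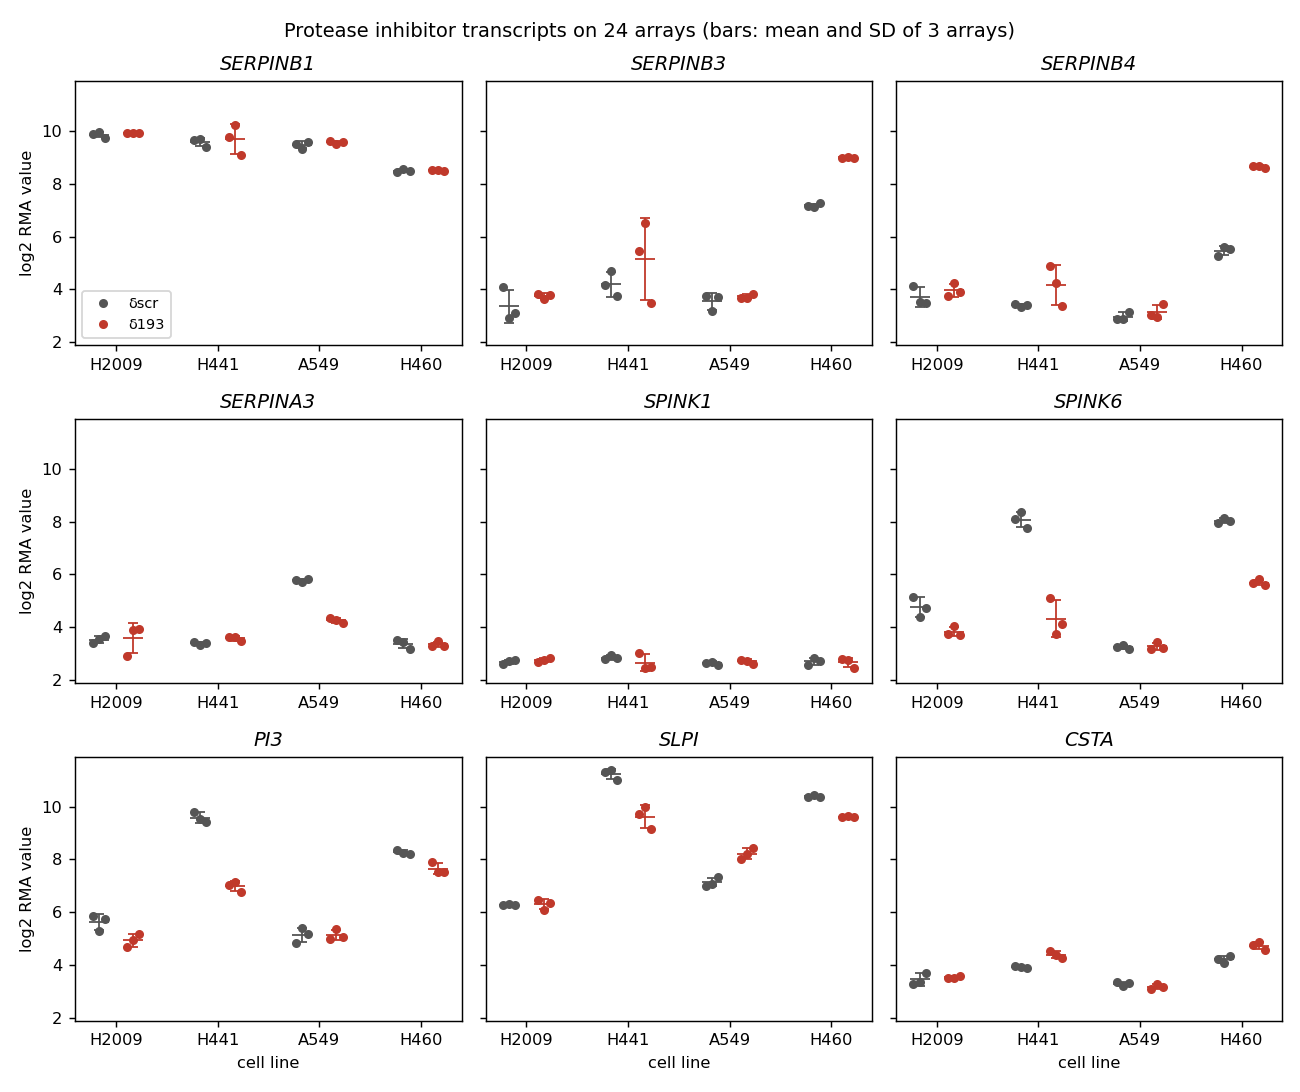
Log2 value of the 9 measured inhibitors on each of the 24 arrays, by cell line on the x axis, with δscr arrays in grey, δ193 arrays in red, and bars for the mean and SD of 3 arrays. SPINK6, PI3 and SLPI were far lower in δ193 than in δscr in H441, SERPINB3 and SERPINB4 were higher in δ193 in H460, and SPINK1 stayed at or under 3.02 throughout.

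The secreted inhibitors of the WAP and Kazal families held the 4 biggest decreases, 3 in H441 and 1 in H460. SPINK6, an inhibitor of kallikrein-related peptidases of the skin, had values of 8.10, 8.35 and 7.77 in the H441 δscr arrays and 5.09, 3.74 and 4.13 in the δ193 arrays. The groups were far apart, and the δ193 arrays lay near the 95th percentile of the olfactory receptors. The change was -3.75 (SE 0.22), and no fold is given since the lower group was not clearly above that level. In bulk RNA, fewer cells with a transcript and less of it per cell cannot be told apart.

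In H460, SPINK6 had 7.96, 8.14 and 8.02 in δscr and 5.66, 5.81 and 5.61 in δ193, a change of -2.35, or 5.08-fold lower. In H2009 it had 5.15, 4.40 and 4.73 in δscr and 3.75, 4.03 and 3.71 in δ193, a change of -0.93. These H2009 groups did not overlap, but the δ193 arrays were at the level of the olfactory receptors and the call was lost without δscr replicate 1, δ193 replicate 1 or δ193 replicate 3. In A549, SPINK6 was between 3.18 and 3.43 on all 6 arrays, low in both groups.

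PI3 encodes elafin, an inhibitor of neutrophil elastase and proteinase 3. In H441 it had 9.80, 9.55 and 9.40 in δscr and 7.04, 7.15 and 6.76 in δ193. Every δ193 array was well below every δscr array, and the change was -2.60 (SE 0.17), or 6.05-fold lower. In H460 the δscr arrays had 8.37, 8.23 and 8.21 and the δ193 arrays 7.91, 7.51 and 7.54, a change of -0.62. That smaller difference was without overlap too, but its call was lost when any 1 of 5 of the 6 H460 arrays was left out, the exception being δ193 replicate 1. The call held with H460 fitted alone.

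In H2009, PI3 had 5.85, 5.28 and 5.72 in δscr and 4.69, 4.93 and 5.19 in δ193, a change of -0.68. The highest δ193 array was just under the lowest δscr array, and the call was lost without δscr replicate 1 or 3, or δ193 replicate 1 or 2. In A549 the 6 arrays lay between 4.84 and 5.39 with the groups interleaved, and the change was -0.01.

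SLPI, the secretory leukocyte peptidase inhibitor, blocks neutrophil elastase and cathepsin G on mucosal surfaces, and it was the 1 member of 9 called in both directions. In H441 it had 11.33, 11.38 and 11.02 in δscr and 9.71, 9.99 and 9.16 in δ193, a change of -1.62 (SE 0.15), or 3.07-fold lower. In H460 it had 10.37, 10.44 and 10.37 in δscr and 9.59, 9.64 and 9.59 in δ193, a change of -0.79, or 1.73-fold lower. In A549 the order was turned: δscr had 7.01, 7.08 and 7.32 and δ193 had 8.01, 8.19 and 8.44, a change of 1.08, or 2.11-fold higher. The arrays of δscr and δ193 were apart in all 3 of these lines, while in H2009 the range of 6.09 to 6.47 in δ193 enclosed that of 6.25 to 6.31 in δscr.

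SPINK1, the pancreatic secretory trypsin inhibitor, was at 2.47 to 3.02 on all 24 arrays, under the median of the olfactory receptors. Its changes ran from -0.19 in H441 to 0.07 in A549 (SE 0.12). Without H441 δ193 replicate 1 the H441 change was -0.38 and met the call rule.

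**Figure D2:**
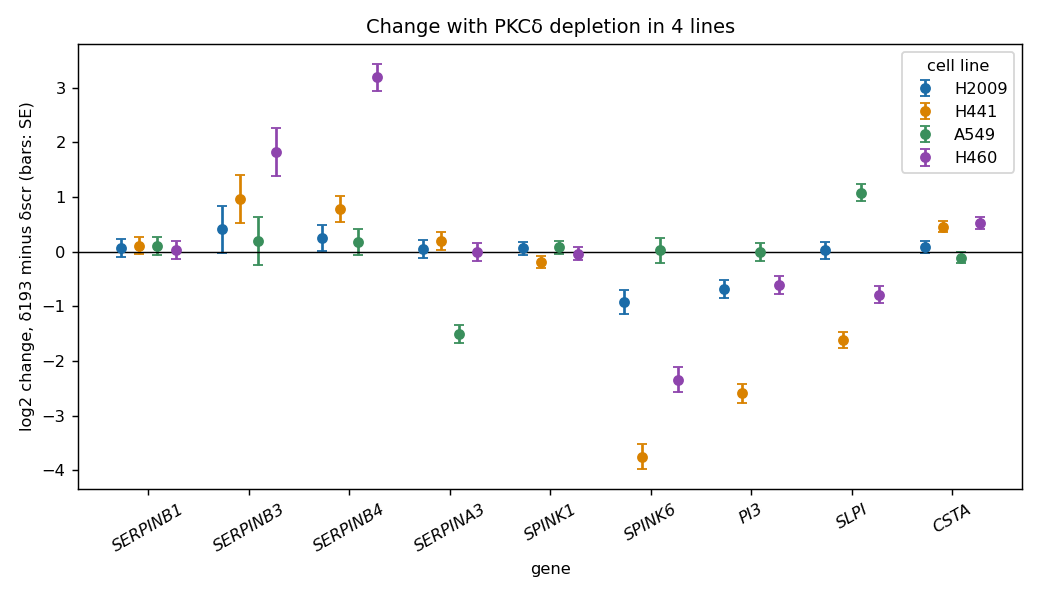
Log2 change (δ193 minus δscr) of each inhibitor on the y axis for the 4 cell lines, with bars for the SE of the model over 24 arrays. SPINK6, PI3 and SLPI lie below 0 in H441 and H460, SLPI lies at 1.08 in A549, and SERPINB4 reaches 3.18 in H460.

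Among the intracellular serpins, the squamous cell carcinoma antigens went the other way from the secreted inhibitors in H460. SERPINB4, which inhibits cathepsin G and mast cell chymase, had 5.28, 5.60 and 5.51 in H460 δscr and 8.68, 8.68 and 8.59 in δ193. All 3 δ193 arrays stood far above the δscr arrays, a change of 3.18 (SE 0.24), or 9.09-fold higher. SERPINB3, which inhibits lysosomal cysteine cathepsins, had 7.14, 7.14 and 7.26 in H460 δscr and 8.985, 9.015 and 8.997 in δ193, a change of 1.82 (SE 0.44), or 3.53-fold higher. Which of these near copies each cluster reads is uncertain, as stated for the pair above.

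In H441 the δ193 arrays of this pair disagreed with each other. SERPINB3 had 4.17, 4.68 and 3.74 in δscr and 5.47, 6.53 and 3.47 in δ193. SERPINB4 had 3.43, 3.33 and 3.41 in δscr and 4.90, 4.24 and 3.36 in δ193. Replicates 1 and 2 of δ193 were above all δscr arrays and replicate 3 was among or below them, for both genes. The change of SERPINB3 was 0.96, which became 1.80 without δ193 replicate 3 and 0.27 without δ193 replicate 2. That of SERPINB4 was 0.78, which became 1.18 without δ193 replicate 3 and 0.41 without δ193 replicate 1, and its call was lost without any 1 of the other 5 H441 arrays. In the same arrays PRKCD was 5.69, 4.68 and 6.00, lowest in replicate 2 and highest in replicate 3, and the part of PRKCD level in these differences was not tested. In H2009 and A549 both genes stayed between 2.86 and 4.24 on every array, near the olfactory receptor level, and their groups overlapped.

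SERPINB1, an inhibitor of neutrophil elastase, cathepsin G and proteinase 3 that is found in the cytosol of many cells, was at a high level in all lines, from 8.45 to 10.21. Its change was 0.11 in H441, 0.10 in A549, 0.06 in H2009 and 0.02 in H460 (SE 0.16), and the groups overlapped in each line. The H441 δ193 arrays again spread widely, with replicate 3 lowest, at 9.79, 10.21 and 9.09, and without replicate 3 the change was 0.41 and met the call rule.

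SERPINA3, or α1-antichymotrypsin, is an acute-phase inhibitor of cathepsin G and chymase, and its change was seen in A549. There it had 5.77, 5.70 and 5.84 in δscr and 4.36, 4.26 and 4.15 in δ193, a change of -1.51 (SE 0.17). The groups were well apart, with the δ193 arrays near the 95th percentile of the olfactory receptors. In the other lines it lay between 2.92 and 3.92 on every array, with changes of 0.19 in H441, 0.05 in H2009 and -0.01 in H460.

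CSTA, or stefin A, is a cytosolic inhibitor of cathepsins B, H and L and a component of the cornified envelope. In H441 it had 3.97, 3.94 and 3.90 in δscr and 4.52, 4.39 and 4.26 in δ193, a change of 0.46 (SE 0.10). In H460 it had 4.22, 4.08 and 4.33 in δscr and 4.77, 4.86 and 4.58 in δ193, a change of 0.52. Both differences were small, without overlap, and at a low level, and the H441 call was lost when that line was fitted alone. In H2009 the change was 0.08 and in A549 -0.11.

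Across the 9 genes and 4 lines, 15 of 36 line values were called, beside 7.32% of the line values of all genes, and 15 of 36 had no overlap between δscr and δ193 arrays, beside 26.4% over all genes (25.9% in H2009, 21.3% in H441, 24% in A549, 34.2% in H460). The 2 sets differed at SERPINB4 in H441, which was called although its arrays overlapped, and at SERPINA3 in H441, whose arrays did not overlap although it was not called. SERPINB1 and SPINK1 were called in no line.

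The δscr groups of the lines differed in most of these genes. SLPI spanned 4.96 between the highest and lowest δscr mean, in the order H441 (11.24 ± 0.20, SD, n = 3), H460 (10.40 ± 0.04), A549 (7.14 ± 0.16) and H2009 (6.28 ± 0.03), with no overlap between neighbours. SPINK6 spanned 4.82, with H441 (8.07 ± 0.29) and H460 (8.04 ± 0.09) overlapping, then H2009 (4.76 ± 0.37) and A549 (3.25 ± 0.07). PI3 spanned 4.44, from H441 (9.58 ± 0.20) through H460 (8.27 ± 0.08) to H2009 (5.62 ± 0.30) and A549 (5.14 ± 0.28), which overlapped each other. These 3 secreted inhibitors were thus highest in H441 and H460. Over all genes, too, the δscr means of H441 and H460 were the most alike (r = 0.966), against r of 0.927 to 0.959 for the other pairs of lines.

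SERPINB3 was highest in H460 (7.18 ± 0.07, SD, n = 3), with the other lines between 3.36 and 4.20 and overlapping in turn. SERPINB4 was also highest in H460 (5.47 ± 0.16), followed by H2009 (3.72), H441 (3.39) and A549 (2.96) without overlap between neighbours. SERPINA3 was at 5.77 in A549 and at 3.37 to 3.53 elsewhere with overlap. CSTA ran from 4.21 in H460 and 3.94 in H441 to 3.45 in H2009 and 3.29 in A549, of which the last pair overlapped. SERPINB1 was highest in H2009 (9.87 ± 0.10), with H441 (9.59) and A549 (9.48) overlapping and H460 lowest (8.50 ± 0.05). SPINK1 spanned 0.22, and neighbouring lines overlapped throughout.

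To see which members moved together within lines, each line's mean was subtracted and Pearson's r was taken over the 24 arrays. SPINK6 and PI3 had r = 0.908, SPINK6 and SLPI 0.774, and PI3 and SLPI 0.765. SERPINB3 and SERPINB4 had 0.793, and SERPINB4 and CSTA 0.73. SPINK6 and CSTA ran opposite to each other, with -0.778, and so did SERPINA3 and SLPI, with -0.535. These values describe arrays that share their lines and the δscr and δ193 groups.

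**Figure D3:**
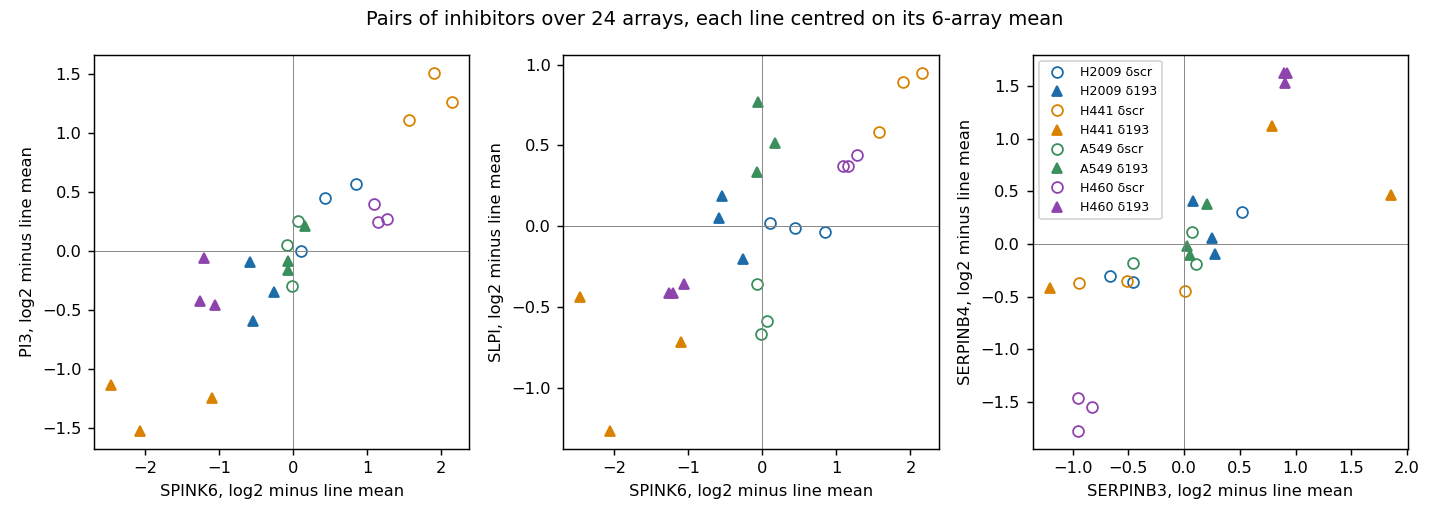
Pairs of inhibitors on the 24 arrays, each gene as log2 value minus its mean over the 6 arrays of the line, with open circles for δscr, filled triangles for δ193 and a colour for each line. SPINK6 and PI3 (r = 0.908) run along a diagonal with H441 at both ends, the A549 arrays leave the diagonal of SPINK6 and SLPI (0.774), and H441 δ193 scatters widely in SERPINB3 and SERPINB4 (0.793).

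The genes most like each member by the same line-centred r are named as a description. SPINK6 was nearest to FABP4, a fatty acid carrier (0.964), SELENBP1 (0.945) and ADD3 (0.937). PI3 was nearest to VTN, which encodes vitronectin (0.937), the TGF-β receptor TGFBR2 (0.924) and the collagen cross-linking enzyme LOXL1 (0.921). SLPI was nearest to the aspartic protease gene CTSD (0.921), ASPH (0.917) and MALL (0.915). SERPINB3 was nearest to MYADM (0.942), the amino acid transporter SLC38A2 (0.942) and PITPNC1 (0.928), and SERPINB4 to the DNA sensor AIM2 (0.938), the matrix protein tenascin TNC (0.913) and DLGAP4 (0.88). SERPINB1 was nearest to the EGFR inhibitor ERRFI1 (0.922), CEBPB (0.899) and MBNL2 (0.872). SERPINA3 was nearest to APLP1 (0.894), OLFM2 (0.879) and the chemokine CCL2 (0.86), and CSTA to PLEK2 (0.855), RELL1 (0.854) and the cytokine IL11 (0.846). SPINK1, at background, had the lowest values, with TESK2 (0.804), OR5B17 (0.747) and EHD3 (0.736).

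Other inhibitors of the same families, which the list of 10 did not use, were tested in the model over all genes (limma, Benjamini-Hochberg adjustment over 18417 genes). Their list, and the protease, squamous and inflammation lists below, were also chosen with earlier results of these data known. Calls and adjusted p-values in these lists are therefore no independent test. Of 62 other inhibitors measured, 13 were called in at least 1 line, beside 22.5% of all genes. In H441 5 were lower and 1 was higher, in A549 4 were higher, in H460 1 was lower and 3 were higher, and in H2009 there was 1 each way. The median change of the 62 was -0.01 in H441, 0.07 in H460, 0.02 in H2009 and 0.005 in A549. Over these and the protease, squamous and inflammation lists, 20 calls were made in H441, of which 4 held when H441 was fitted alone, those of PRSS23, CTSH, CTSS and LIF. With each line fitted alone, 11 of 11 calls held in H460, 13 of 13 in H2009 and 13 of 16 in A549. With each array left out in turn, 6 of the 11 in H460 held every time.

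Of the 8 other clade B serpins, 3 were called. SERPINB7, which is made in skin, fell in H2009 from 4.56 ± 0.08 to 3.56 ± 0.18 (SD, n = 3), by 0.996 (SE 0.11, limma adjusted p = 5.6e-06). The H2009 δ193 group of SERPINB7 was at the olfactory receptor level. SERPINB9, the inhibitor of granzyme B, rose in H2009 from 6.32 ± 0.28 to 7.42 ± 0.06, by 1.10 (SE 0.13, limma adjusted p = 1.39e-05), and in H460 by 0.60 (limma adjusted p = 0.00674). SERPINB8 rose in H460 by 0.52 (limma adjusted p = 0.0239), a call lost without any 1 of the 6 H460 arrays. In H2009, therefore, 2 serpins of this clade moved in opposite directions while SERPINB1, SERPINB3 and SERPINB4 had overlapping groups.

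Of the 18 serpins of other clades, 6 were called. SERPINA1, or α1-antitrypsin, the main plasma inhibitor of neutrophil elastase, rose in A549 from 4.90 ± 0.06 to 5.72 ± 0.04 (SD, n = 3), by 0.82 (limma adjusted p = 0.00644). In H441 it was called lower, by 0.62 (limma adjusted p = 0.0176), but the arrays overlapped and the call was lost without δscr replicate 1 or 2 or δ193 replicate 3. In A549, then, SERPINA1 was higher where SERPINA3 was lower. SERPINI1, or neuroserpin, rose in A549 by 0.71 (limma adjusted p = 0.00503), and SERPINE2 by 0.41 (limma adjusted p = 0.0472), a call lost without any 1 of the 6 A549 arrays. SERPIND1, or heparin cofactor II, rose in H460 from 4.23 ± 0.07 to 5.33 ± 0.37, by 1.10 (limma adjusted p = 0.000192). In H441, SERPINF1 (-0.47, limma adjusted p = 0.0293) and SERPINA5 (-0.35, limma adjusted p = 0.0274) were called lower, the former with overlapping arrays. SERPINA5 was at the olfactory receptor level in both H441 groups, at 3.73 in δscr and 3.38 in δ193. The SERPINF1 call was lost without δscr replicate 1 or 2 or δ193 replicate 1 or 3, and that of SERPINA5 without δscr replicate 2 or δ193 replicate 1.

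Of the 11 other Kazal and Kunitz inhibitors, 3 were called. TFPI, the tissue factor pathway inhibitor, fell in H441 and H460, where SPINK6, PI3 and SLPI were lower too, from 9.58 ± 0.15 to 8.58 ± 0.55 in H441 (-1.001, limma adjusted p = 0.000221) and from 8.77 ± 0.06 to 7.99 ± 0.03 in H460 (-0.78, limma adjusted p = 0.00571). TFPI2 rose in H441 by 0.86 (limma adjusted p = 0.0102), a call lost without δ193 replicate 2, with H441 fitted alone and by the methods' t-test. It was also higher without overlap of arrays, though not called, in H2009 by 0.72 (limma adjusted p = 0.0673) and in H460 by 0.63 (limma adjusted p = 0.118). The SE of 0.23 is shared over the lines. Group SDs of TFPI2 were 0.03 to 0.06 in H2009 and H460, and up to 0.55 in H441 and 0.69 in A549. In A549 the TFPI2 change was -0.34, with overlap. SPINK4 rose in A549 from 4.21 ± 0.15 to 5.07 ± 0.34, by 0.86 (limma adjusted p = 0.00229). Of the 12 other WAP-domain genes, kin of PI3 and SLPI, limma called 0 in each line. At an unadjusted p under 0.05 it gave 1 of 12 in H441 and 0 in the other lines, and the methods' t-test gave 1 of 12 in A549. Of 13 other cystatins, CSTB in H441 was the 1 call (-0.56, limma adjusted p = 0.0392), with overlapping arrays, and it was lost without δscr replicate 1 or 2 or δ193 replicate 2 or 3.

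Proteases that such inhibitors can meet were called for 15 of 46 measured genes in at least 1 line, beside 22.5% of all genes. The median change of the 46 was between -0.07 (H441) and 0.09 (H460). Of the 12 cysteine proteases, 8 were called, with 5 in H441 (4 lower), 5 in A549 (3 lower), 3 in H460 (2 lower) and 1, lower, in H2009. The median change of the 12 was -0.29 in H441, -0.10 in A549, -0.07 in H460 and 0.04 in H2009. CTSH, the aminopeptidase cathepsin H that CSTA can inhibit, fell in 3 lines: from 6.28 ± 0.25 to 4.86 ± 0.20 (SD, n = 3) in H441 (-1.42, limma adjusted p = 5.61e-07), from 6.14 ± 0.18 to 5.10 ± 0.17 in H460 (-1.03, limma adjusted p = 7.76e-05) and from 7.66 ± 0.27 to 6.76 ± 0.15 in A549 (-0.89, limma adjusted p = 0.000502). In H2009 its change was 0.02. CTSS, the elastin-degrading cathepsin S, fell in H441 from 5.25 ± 0.29 to 4.18 ± 0.40 (-1.07, limma adjusted p = 4.09e-05). CTSV was called lower in A549 (-0.68, limma adjusted p = 0.00347), in H2009 (-0.61, limma adjusted p = 0.00874) and in H460 (-0.47, limma adjusted p = 0.0495). The H2009 call of CTSV was lost without δscr replicate 2 or δ193 replicate 1, and the H460 call without any 1 of the 6 H460 arrays. The H460 δ193 group of CTSV was at the olfactory receptor level, at 3.66.

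CTSB, or cathepsin B, fell in H441 by 0.50 (limma adjusted p = 0.000632) and rose in H460 by 0.36 (limma adjusted p = 0.0209), the latter lost without δscr replicate 1 or any 1 of the δ193 arrays. CTSC, which activates neutrophil serine proteases, rose in A549 by 0.50 (limma adjusted p = 0.000228). CTSH was thus lower in H441 and H460, where CSTA was higher, and also in A549, where the CSTA change was -0.11.

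Of the 34 serine proteases, 7 were called in at least 1 line, beside 22.5% of all genes. H2009 had 4 of these, beside 4.91% of all genes called there. KLK6, a kallikrein-related peptidase, fell in H2009 from 4.855 ± 0.26 to 3.95 ± 0.20 (SD, n = 3), by 0.90 (limma adjusted p = 3.81e-05), in the line where SPINK6 was lower by 0.93. The H2009 δ193 group of KLK6 was at the olfactory receptor level. TMPRSS11E fell in H2009 from 8.04 ± 0.15 to 7.32 ± 0.08 (-0.72, limma adjusted p = 0.000709) and in H441, at the olfactory receptor level, by 0.49 (limma adjusted p = 0.00694), a call lost without δscr replicate 2. PRSS1, whose trypsinogen family has near-identical copies, was called higher in H2009 by 0.88 (limma adjusted p = 0.000292), with the member read uncertain. PRSS23 fell in H441 from 8.74 ± 0.22 to 7.65 ± 0.38 (-1.09, limma adjusted p = 8.4e-06). HTRA1 in H441 (-0.50, limma adjusted p = 0.0164) had overlapping arrays and was lost without δscr replicate 1 or δ193 replicate 3. PLAT, tissue plasminogen activator, fell in A549 by 0.76 (limma adjusted p = 0.000132) and in H2009 by 0.49 (limma adjusted p = 0.00867), the latter lost without δscr replicate 1. ST14, or matriptase, rose in H460 by 0.40 (limma adjusted p = 0.0294), a call lost without any 1 of 5 of the 6 H460 arrays, δscr replicate 2 being the exception.

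Squamous and cornified envelope genes were set beside the members because CSTA, PI3, SPINK6, SERPINB3 and SERPINB4 are made in stratified epithelia. Of 32 measured, 8 were called in at least 1 line, beside 22.5% of all genes. Median changes of the 32 ran from -0.08 (H441) to 0.07 (H460). Of the 8 called, 6 were small proline-rich (SPRR) genes that rose in H2009. SPRR1B rose from 4.21 ± 0.19 to 5.93 ± 0.08 (SD, n = 3), by 1.72 (SE 0.17, limma adjusted p = 9.42e-07), SPRR2D by 1.47 (limma adjusted p = 2.37e-05) and SPRR3 by 1.31 (limma adjusted p = 2.42e-06). SPRR2 genes are near copies of each other, so which of them was read is uncertain. SPRR2E was at the olfactory receptor level in both H2009 groups, at 2.90 in δscr and 3.56 in δ193. In H441 IVL, or involucrin, was called lower by 0.35 (limma adjusted p = 0.0372) at a level under the olfactory receptors' 95th percentile, a call lost without δscr replicate 1 or 2 or δ193 replicate 2. In A549 KRT10 was called higher by 0.37 (limma adjusted p = 0.0137), lost without δscr replicate 2 or 3 or δ193 replicate 2 or 3. In H460, where SERPINB3 and SERPINB4 were higher, limma called 0 of 32, with 5 at an unadjusted p under 0.05 and 3 by the methods' t-test.

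**Figure D4:**
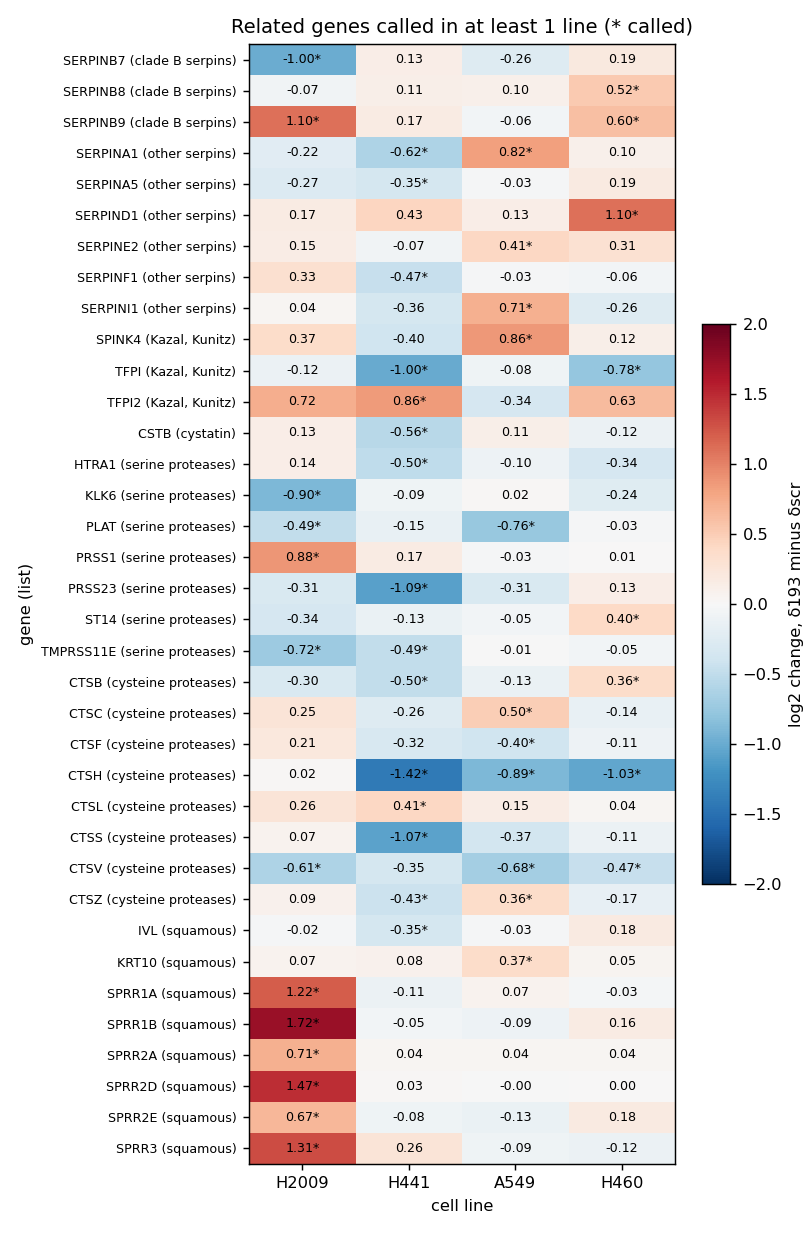
Log2 change (δ193 minus δscr) of the related inhibitors, proteases and squamous genes called in at least 1 line, by cell line, with an asterisk for a call. CTSH is lower in H441, A549 and H460, TFPI in H441 and H460, and the 6 SPRR genes are higher in H2009.

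Several of the members are known to respond to inflammatory cytokines, so 23 acute-phase and epithelial inflammation genes were read as well. Of these, 11 were called in at least 1 line, beside 22.5% of all genes. The median change of the 23 was 0.20 in H460, -0.14 in A549, 0.06 in H2009 and 0.04 in H441. In H460, IL1B rose from 5.62 ± 0.31 to 7.97 ± 0.02 (SD, n = 3), by 2.35 (limma adjusted p = 0.000446), CXCL8, or interleukin-8, by 1.69 (limma adjusted p = 0.00351) and STAT3 by 0.32 (limma adjusted p = 0.0396), the last lost without any 1 of the 6 H460 arrays. In A549, where SERPINA3 was lower, TNFAIP3 fell by 1.10 (limma adjusted p = 0.00792), LCN2, or lipocalin 2, by 1.08 (limma adjusted p = 0.00853) and CEBPD by 0.56 (limma adjusted p = 0.000462). In H441, 3 genes were called higher and 2 lower. OSM rose by 1.71 (limma adjusted p = 0.000638) and LIF by 1.47 (limma adjusted p = 0.000111), while IL6, higher by 1.49 (limma adjusted p = 0.0273), had overlapping arrays and was lost without δscr replicate 2 or 3 or δ193 replicate 1 or 2. IL6 was also higher without overlap, though not called, in H2009 by 0.99 and in H460 by 1.23, and its change in A549 was -0.05. The lower ones were the oncostatin M receptor OSMR (-0.64, limma adjusted p = 0.000695) and SAA2 (-0.58, limma adjusted p = 0.00497). SAA2 was at the olfactory receptor level in both H441 groups, at 3.77 in δscr and 3.19 in δ193. Of the H441 calls in this list, that of LIF was the only one kept with H441 fitted alone. OSMR was also called lower in A549 (-0.51, limma adjusted p = 0.0133). That A549 call was lost without δscr replicate 1 or δ193 replicate 2 or 3. In H2009 limma called 0 of the 23, with 4 at an unadjusted p under 0.05 and 3 by the methods' t-test. Without H441 δ193 replicate 3 the number called in at least 1 line was 17.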

How the data were processed

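The files hold log2 values that the authors made from 24 Affymetrix Human Gene 1.0 ST arrays with Affymetrix Power Tools and the Robust Multiarray Average (RMA) method, which corrects background, sets the arrays to 1 distribution and summarises probes per transcript cluster, so that a shift of all genes is removed and low values are compressed. The genome build is not given in the sources used here. Of 33252 clusters, 19460 had 1 gene symbol in the platform annotation, 1754 several and 12038 none. Clusters with a single symbol were used, 1 per gene with the highest mean over 24 arrays, which left 18417 genes. The array number limits precision.

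A model with the 8 groups was fitted in limma 3.58.1 (R 4.3.3) with empirical Bayes moderation, with Benjamini-Hochberg adjustment across the 18417 genes. A call needed an adjusted p under 0.05 and the fold limit of the study's methods (0.32 on the log2 scale). Groups were taken from the sample titles.

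The members and the gene lists were chosen with earlier results of these data known. Named from each list were up to 3 called genes per line with the greatest change, each member in every line, PRKCD, and the 3 genes most like each member. Genes outside this rule were named where a count needed it, after their values were seen. Alternatives were the methods' t-test (unadjusted at their threshold and after Benjamini-Hochberg), each line fitted alone, trend with robust moderation, array weights, equal array medians, quantile normalisation, genes above the median level, the mean over clusters, no fold limit, a replicate block, and each array left out. The fit was tested on simulated data drawn with the spread of each line: it recovered most changed genes, but in H441, the line with the widest spread, it also called unchanged genes far above the nominal rate, so that calls there are weaker than their adjusted p states.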

Additional observations from a re-analysis of the deposited data

Results flagged for a closer look

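SLPI was called lower in H441 and H460 and higher in A549. Its change in H441 minus that in A549 was -2.70, and its change in A549 minus that in H460 was 1.87. In each of these lines the δscr and δ193 arrays did not overlap, and the differences were not tested, because SLPI belongs to the list that was chosen on these values. SERPINA1 was called in opposite directions too, with a change in H441 minus that in A549 of -1.44 (limma interaction, adjusted p = 0.00062). The change of CTSZ in H441 minus that in A549 was -0.80 (limma interaction, adjusted p = 0.000244), although its H441 call was lost with the line fitted alone and its A549 call without δscr replicate 2 or δ193 replicate 2 or 3. That of CTSB in H441 minus that in H460 was -0.86 (limma interaction, adjusted p = 0.000459), and that of STAT3 in A549 minus that in H460 was -0.71 (limma interaction, adjusted p = 0.00166). The STAT3 call in A549 was lost with the line fitted alone and without δscr replicate 1 or δ193 replicate 2 or 3. Each of these tests shares the spread over lines, which is under that of H441. They were run only for listed genes already called in opposite directions in the same lines and arrays. A low adjusted p was thus largely fixed in advance, and it is no further support for a difference between lines.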

How the results depend on the processing

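No change of a member turned its direction where it was called, and of 480 recomputed changes of members 474 moved by less than the spread between replicates. Lines fitted alone, trend with robust moderation, the level filter, the mean over clusters and the replicate block leave a difference of group means as it was. Leaving out 1 of 3 arrays can move it little beyond that spread. The count was thus largely fixed in advance and is no measure of stability. With Benjamini-Hochberg on the methods' t-test, calls among the 9 inhibitors were 0 in H441, 0 in H2009, 1 in A549 and 4 in H460, and those in at least 1 line were 5 of the other inhibitors, 4 proteases, 1 squamous gene and 7 inflammation genes. Over all genes that test called 1 in H441 and 907 in H460, against 2636 and 1003 in the model of all arrays. With array weights the log2 change of SERPINB4 in H441 was 1.36 and the log2 change of SPINK1 in H441 was 0.09. SERPINB3 in H441 met the call rule with array weights, with the replicate block and without δ193 replicate 3. With each line fitted alone, the inhibitors called were 1 in H2009 and 3 in H441. With genes above the median level alone, where fewer genes are tested, there were 2 in H441, 2 in H460, 1 in H2009 and 1 in A549, with 7 other inhibitors, 7 proteases and 0 squamous genes. Leaving out each array in turn gave 4 to 7 inhibitors in H441, 5 to 6 in H460, 0 to 2 in H2009 and 2 in A549, with 11 to 17 other inhibitors, 13 to 17 proteases, 7 to 10 squamous genes and 10 to 17 inflammation genes. The 0 in H2009 came without δscr replicate 1 or δ193 replicate 1, and the 1 without δscr replicate 3, δ193 replicate 2 or δ193 replicate 3. The cause of these differences was not tested.

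Samples with the same replicate number deviated together weakly (r of -0.085 to 0.284), and 11 of 24 arrays correlated best with their own number, so the numbers were not taken to pair the samples. With a replicate block the calls over all genes were 2755 in H441, 1030 in H460, 904 in H2009 and 834 in A549, the inhibitors called were 6, 6, 2 and 2, and the listed genes called were 14 other inhibitors, 16 proteases, 12 squamous genes and 13 inflammation genes. Transcripts near the level of the olfactory receptors, among them SPINK1, allow no statement on small changes.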
